A study of Mus musculus with 12 samples.

Results

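The 3 genes described here, *Ano10*, *Lgals4* and *Gm34302*, are those that stood furthest below sham after infarction in mice that received vehicle. They were chosen from the measurements themselves. Of 33641 gene symbols in the deposited table, 13158 were tested, 119 were called lower after myocardial infarction (MI) under vehicle, and 99 of these had a mean of 5 TPM or more with no overlap between the groups. TPM (transcripts per 1000000) is the share of a library that a transcript takes, corrected for its length. The 3 genes head that list of 99, at -1.54, -1.39 and -1.14 on the log2(TPM + 1) scale. The next genes outside the choice were *Gm45233* at -1.13 and *Acot1* at -0.94, so the choice ended at a narrow margin. Under vehicle, 16.0% of tested genes were called, 15.1% higher and 0.904% lower in MI, the groups lay apart with MI below in 4.17%, and the difference between MI and sham under vehicle is given below only as a description, because it fixed the choice. The median gene was 0.39 higher in MI in this comparison. When libraries were rescaled by median ratios, the 3 differences became -1.94, -1.76 and -1.55. The vehicle shares were not counted after rescaling, so their balance of higher and lower holds for TPM as deposited.

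RNA was measured in myocardium of male C57BL/6 wild-type mice, labelled as about 16 weeks old (the treatment protocol gives about 10 weeks). The 4 groups of 3 mice were sham surgery with weekly vehicle, MI with weekly vehicle, sham surgery with weekly prednisone and MI with weekly prednisone. Prednisone is a synthetic glucocorticoid, and it was injected into the peritoneum at 1 mg/kg at lights-on, weekly for 6 weeks, beginning 2 weeks after the operation. Hearts were sampled 24 hours after the final dose, and the labels do not say which part of the heart was sampled.

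*Ano10* encodes anoctamin 10 (TMEM16K), an endoplasmic reticulum membrane protein of the family that holds calcium-activated chloride channels and phospholipid scramblases. Its loss causes a recessive cerebellar ataxia in humans. *Lgals4* encodes galectin-4, a lectin that binds beta-galactoside sugars and is best known from the epithelium of the gut. *Gm34302* is listed by RefSeq as a synonym of *Strit1*, also known as DWORF, a small membrane peptide of the sarcoplasmic reticulum in muscle. DWORF raises the activity of SERCA, the pump that returns calcium to the sarcoplasmic reticulum after each contraction, by displacing its inhibitor peptides phospholamban, sarcolipin and myoregulin.

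The libraries hold 1000000 TPM each, and the number of reads behind them is unknown. The 10 cardiomyocyte markers checked were above 1 TPM in every group, with a summed level between 26770 and 44350 TPM per library. None of 9 markers of intestinal epithelium passed the filter on low values, and *Cdx2* and *Tff3* were listed at 0 in all 12 libraries. MI vehicle replicate 3 stood apart: its median gene was 0.74 above the sham vehicle mean on the log2 scale, against -0.07 to 0.25 in the other 11 libraries. In the 3 MI prednisone libraries, short transcripts stood high relative to long ones (Spearman correlation of the difference from sham vehicle with transcript length across genes, -0.40 to -0.25, against -0.12 to 0.24 elsewhere). Genes are not independent observations, and these correlations only describe the libraries. The labels name no batch.

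*Ano10* was lower in infarcted than in sham hearts with either treatment. In sham hearts under vehicle its level was 65.0, 70.8 and 72.2 TPM in the 3 mice. In MI hearts under vehicle it was 29.7, 19.7 and 21.2 TPM. Every MI mouse was far below every sham mouse, which is the difference that chose the gene. Under prednisone the sham mice had 73.1, 66.9 and 71.2 TPM and the MI mice 25.4, 33.3 and 30.3 TPM. The difference between these sham and MI mice did not enter the choice. Their values did enter the mean TPM and the estimate of spread behind it. Again the groups did not overlap. The mean was 70.4 ± 3.15 TPM in sham and 29.6 ± 3.97 TPM in MI (SD, n = 3 each), a ratio of 0.421, and the log2 change was -1.23 (SE 0.15, 95% interval -1.56 to -0.90, limma adjusted p = 0.00124). An exact permutation test of 3 against 3 mice gave p = 0.10, two-sided, the smallest it can give. In bulk tissue, fewer cells of a type and less RNA per cell cannot be told apart.

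*Ano10* was the 1 gene of the 3 called in this comparison under prednisone. Of all tested genes, 16.8% were called there, 14.1% lower and 2.73% higher. In 32.2% the MI mice lay wholly below the sham mice and in 12.9% wholly above. These shares depend on scaling. The 2213 calls, 359 higher and 1854 lower, became 3490 when libraries were rescaled by median ratios, 1605 higher and 1885 lower, and 1515 after a correction for transcript length, 583 higher and 932 lower. The *Ano10* change was -1.11 with the first (limma adjusted p = 0.00571) and -1.44 with the second (0.00435). In sham hearts *Ano10* differed by 0.02 on the log2 scale between prednisone and vehicle, and in MI hearts by 0.34, with overlapping groups in both. The MI value was 0.75 with rescaled libraries and 0.82 for the short transcript described below. These comparisons share the vehicle mice that chose the gene and were not tested. Over all genes, 0.114% were called in sham hearts and 37.4% in MI hearts, 2.50% higher and 34.9% lower with prednisone. The median log2 difference over all genes was -0.41 in MI hearts, and these shares were not counted after rescaling.

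**Figure D1:**
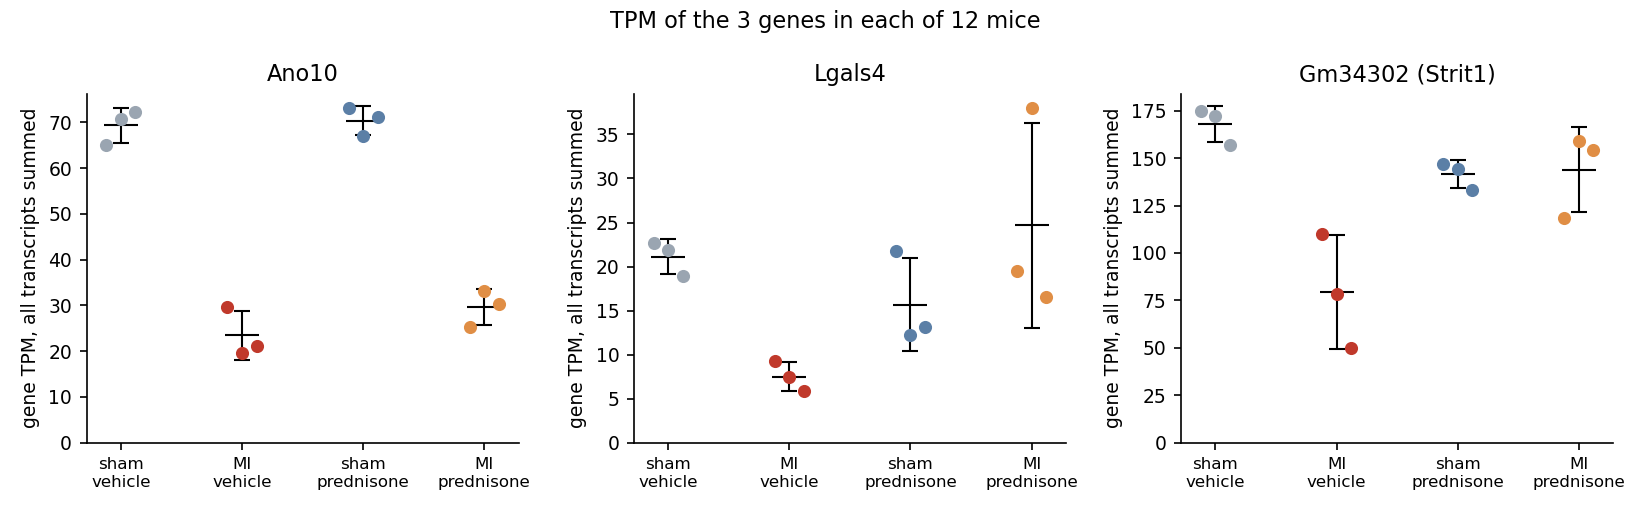
Gene TPM of *Ano10*, *Lgals4* and *Gm34302* (y axes, all transcripts summed) in each of 12 mice by group (x axes). Points are mice, and bars are the mean ± SD of 3. *Ano10* lies between 19.7 and 33.3 TPM in all 6 MI mice and between 65.0 and 73.1 TPM in all 6 sham mice, while *Lgals4* and *Gm34302* are low in the MI vehicle mice.

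The *Ano10* difference lay mostly in a short transcript. The table holds 8 *Ano10* transcripts, of which 3 passed the filter on low values and 1 was listed at 0 in every library. In GENCODE M21 (GRCm38, which is mm10) the gene spans chromosome 9, 122175874 to 122294423, on the minus strand. The long transcript (ENSMUST00000042546.3) has 13 exons, 2653 bases and 1977 coding bases before the stop codon. The short transcript (ENSMUST00000216738.1, 122175893 to 122187619) has 2 exons and 680 bases. Its first exon lies inside the 25292-base last intron of the long transcript, 106804 bases downstream of where the long one starts. GENCODE tags its 5′ end as not found, so its true start may lie elsewhere. The first exon, 94 bases, is printed because it is the part of the short transcript that the long transcript lacks (chr9:122187526-122187619, minus strand, 5′ to 3′). The other 586 bases lie within the last exon of the long transcript, and reads from them can come from either transcript. How the authors divided such reads could not be checked here.
Short Ano10 transcript, first exon: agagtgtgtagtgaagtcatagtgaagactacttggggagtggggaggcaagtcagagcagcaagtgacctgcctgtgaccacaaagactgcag

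**Figure D2:**
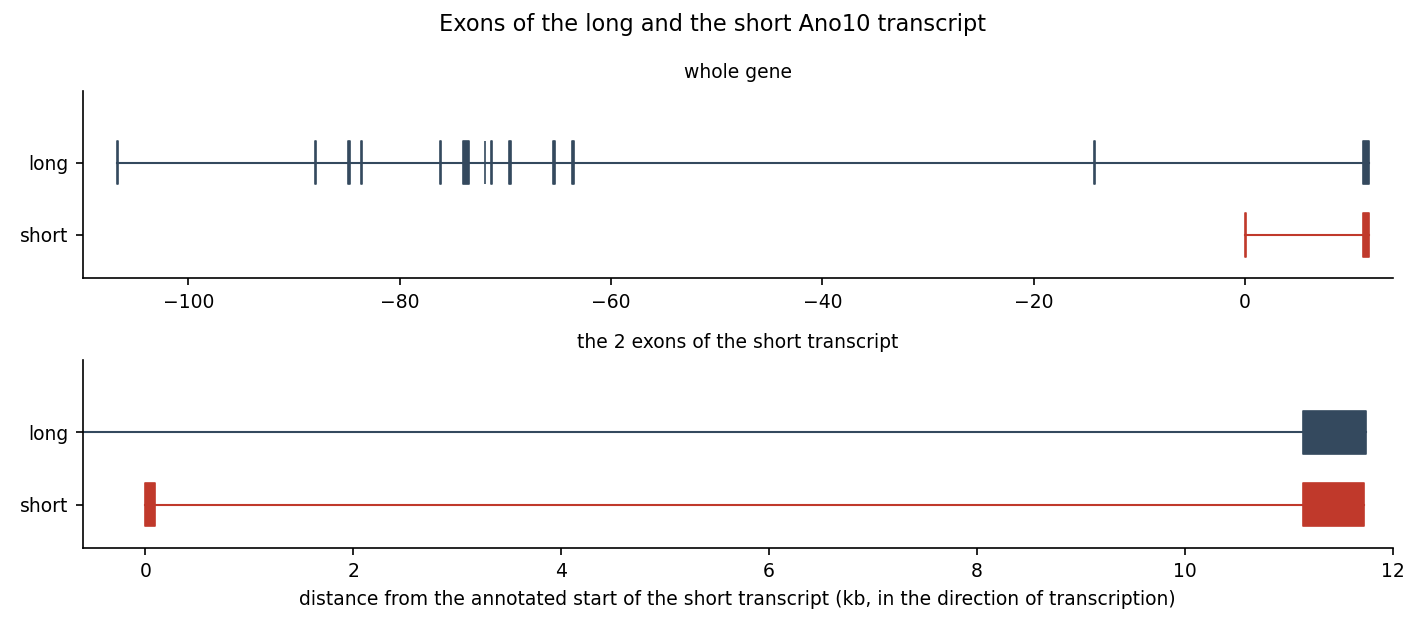
Exons (boxes) and introns (lines) of the long transcript and the short transcript, to scale, with distance in kb from the annotated start of the short transcript in the direction of transcription on the x axis. The upper panel shows the whole gene and the lower panel the 2 exons of the short transcript, of which the second lies within the last exon of the long transcript.

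In sham hearts the short transcript made up nearly the whole gene. It was at 59.6, 63.5 and 67.0 TPM under vehicle, from 89.7% to 92.8% of *Ano10*. In MI hearts under vehicle it was at 21.9, 11.3 and 9.83 TPM, or 74.0%, 57.1% and 46.4% of the gene. The long transcript went the other way in the same mice, from 4.08, 4.74 and 3.01 TPM in sham to 7.48, 7.62 and 10.5 TPM in MI. The separation of the short transcript follows from the choice of the gene, since it makes up most of it. That of the long transcript, in the opposite direction, was not tested. The log2 difference of the long transcript was 0.95, beside a median of 0.39 over all genes in the same comparison. That median is over summed genes, and none was taken over transcripts. The summed gene was lower by less than its short transcript, whose log2 difference was -2.15 against -1.54 for the gene. MI vehicle replicate 3, the library that stood apart, had both the highest value of the long transcript and the lowest of the short one.

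The mice under prednisone give these transcripts in samples whose difference between MI and sham the choice did not use. The short transcript was at 67.9, 61.3 and 65.4 TPM in sham and at 20.9, 27.9 and 25.3 TPM in MI. In the fit of all 27769 transcript rows the log2 change was -1.37 (SE 0.23, 95% interval -1.88 to -0.86, limma adjusted p = 0.00219), where 22.3% of rows were called, 15.6% lower and 6.75% higher. The long transcript was at 3.96, 4.40 and 4.67 TPM in sham and at 4.13, 4.88 and 4.39 TPM in MI, with overlapping groups. Its log2 change was 0.03 (SE 0.18, 95% interval -0.35 to 0.42, limma adjusted p = 0.921). The share of the short transcript was 91.6% to 93.0% in sham and 82.3% to 83.8% in MI (exact permutation p = 0.10, two-sided, the smallest possible). The other transcript that passed the filter (ENSMUST00000216081.1), annotated as a target of nonsense-mediated decay, was at 0.88 ± 0.06 TPM in sham and 0.30 ± 0.19 TPM in MI (SD, n = 3 each), and its change of -0.54 was not called (limma adjusted p = 0.149). Without the short transcript, the rest of the gene was at 5.52 ± 0.33 TPM in sham and 4.96 ± 0.44 TPM in MI under prednisone.

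**Figure D3:**
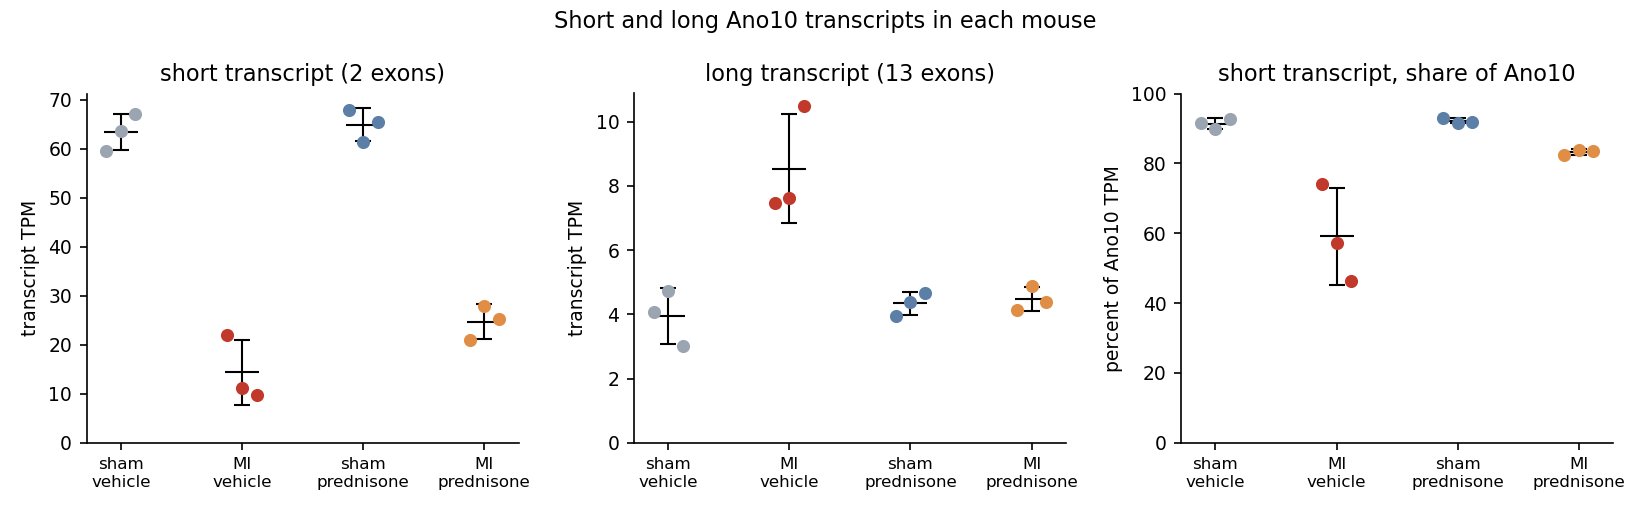
TPM of the short transcript and the long transcript and the percent of *Ano10* TPM that the short transcript takes (y axes) in each mouse by group (x axes), with the mean ± SD of 3. The short transcript is at 9.83 to 27.9 TPM in the 6 MI mice and 59.6 to 67.9 TPM in the 6 sham mice, while the long transcript is above sham only in the MI vehicle mice.

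*Lgals4* (chromosome 7, 28833854 to 28841708, plus strand) was low after infarction under vehicle and not under prednisone. In sham hearts under vehicle it was at 22.6, 21.9 and 18.9 TPM. In MI hearts under vehicle it was at 9.23, 7.44 and 5.89 TPM. The groups were separate, as the choice required. Under prednisone the sham mice had 21.8, 12.2 and 13.1 TPM and the MI mice 19.5, 38.0 and 16.6 TPM, so that the groups overlapped and MI replicate 2 stood highest of all 12 libraries. The means were 15.7 ± 5.31 and 24.7 ± 11.7 TPM (SD, n = 3 each), and the log2 change of 0.58 was not called (SE 0.29, 95% interval -0.07 to 1.22, limma adjusted p = 0.212). Without MI prednisone replicate 2 it was 0.23 (limma adjusted p = 0.657). The difference between the treatments was not tested, since the vehicle mice chose the gene. In MI hearts the prednisone mice lay wholly above the vehicle mice, by 1.52 on the log2 scale (3.59% of all genes lay apart in this direction), and in sham hearts the groups overlapped, at -0.45.

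The table holds 7 *Lgals4* transcripts, of which 4 passed the filter. The full-length coding transcript (ENSMUST00000066723.14, 1384 bases, 10 exons) took 50.2% to 66.7% of the gene in every library, and a transcript annotated with a retained intron (ENSMUST00000126603.1, 1059 bases) took 20.8% to 34.7%. The coding transcript was at 11.3, 11.4 and 12.6 TPM in sham and 5.09, 4.90 and 3.07 TPM in MI under vehicle. Under prednisone it was at 13.3, 7.23 and 8.72 TPM in sham and 11.1, 23.1 and 9.51 TPM in MI, 0.48 higher in MI on the log2 scale with SE 0.30 and limma adjusted p = 0.298. The change of the retained-intron transcript was 0.73 (SE 0.34, limma adjusted p = 0.148). Neither transcript was called.

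Since galectin-4 is a gut gene, epithelial RNA was looked for beside it. The 9 intestinal markers summed to at most 0.754 TPM in sham vehicle, 9.34 in MI vehicle, 0.403 in sham prednisone and 5.46 TPM in MI prednisone libraries. The highest sums belonged to *Epcam*, an epithelial adhesion gene, at 7.99 TPM in MI vehicle replicate 3 and 4.85 TPM in MI prednisone replicate 2. The first of these libraries had the lowest *Lgals4* level of the 12 and the second the highest. *Epcam* was between 0 and 0.529 TPM in the other 10 libraries, which held 7.44 to 22.6 TPM of *Lgals4*.

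The gene upstream of *Lgals4* was also lower in MI under vehicle. *Ech1*, which encodes a mitochondrial enzyme of unsaturated fatty acid oxidation, ends 1606 bases before *Lgals4* on the same strand. It was at 1104, 1131 and 1091 TPM in sham and 788.7, 650.3 and 579.1 TPM in MI under vehicle, a log2 change of -0.73 (limma adjusted p = 0.0108). Under prednisone it was at 1024 ± 76.9 TPM in sham and 1016 ± 150 TPM in MI, a change of -0.02 (limma adjusted p = 0.946). In MI hearts it was 0.60 higher with prednisone (limma adjusted p = 0.00638). By likeness over the 12 libraries, *Ech1* was among the 5 genes most like *Lgals4* out of 8115 with a mean of 5 TPM or more (Pearson r = 0.88 of log2 values, given as a description). *Lgals4* was at 19.1 ± 1.60 TPM per 1000 TPM of *Ech1* in sham vehicle and 11.1 ± 0.82 in MI vehicle. The choice of *Lgals4* by its vehicle values bears on these 2 ratios. Under prednisone the ratio was 15.4 ± 5.38 in sham and 23.6 ± 7.44 in MI (exact permutation p = 0.30). None of the other 4 tested neighbours was called lower in MI against sham with either treatment. Over all genes 0.904% were called lower under vehicle and 14.1% under prednisone, so none of 4 is near those shares. *Actn4*, a non-muscle alpha-actinin, was 0.93 higher in MI under vehicle (limma adjusted p = 0.0141), where 15.1% of all genes were called higher. *Hnrnpl*, *Rinl* and *Lgals7* were not called.

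*Gm34302* (chromosome 3, 63481112 to 63483879, minus strand) has 1 transcript in the table, of 243 bases. Its coding sequence is printed because the whole peptide is made from it, 34 codons before the stop. Capitals mark the start and stop codons (chr3:63481290-63483827, minus strand, 5′ to 3′, joined over 1 intron).
Gm34302 coding sequence: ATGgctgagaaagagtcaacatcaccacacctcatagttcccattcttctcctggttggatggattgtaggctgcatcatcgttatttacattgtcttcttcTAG

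*Gm34302* was abundant in sham hearts and lower in every MI vehicle mouse. It was at 174.9, 172.1 and 156.9 TPM in sham and at 110.0, 78.4 and 49.8 TPM in MI under vehicle. The MI mice differed widely among themselves, and replicate 3 was the lowest. Without that library the log2 difference was -0.85 instead of -1.14. Under prednisone the sham mice had 147.0, 144.3 and 133.2 TPM and the MI mice 118.2, 159.2 and 154.4 TPM. These groups overlapped, with means of 141.5 ± 7.34 and 143.9 ± 22.4 TPM (SD, n = 3 each). The log2 change was 0.01 (SE 0.23, 95% interval -0.48 to 0.51, limma adjusted p = 0.978). The difference between the treatments was again not tested. With prednisone the MI mice lay wholly above the vehicle MI mice, by 0.91 on the log2 scale, as did 3.59% of all genes. Without MI vehicle replicate 3 this difference was 0.61. The prednisone sham mice lay wholly below the vehicle sham mice, at -0.25, as did 2.58% of all genes. After the length correction the sham difference was -0.06.

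The *Gm34302* transcript is shorter than most, and short transcripts stood high in the MI prednisone libraries. Between MI and sham under prednisone the 564 genes under 500 bases had a median log2 change of 0.22, against -0.06 over all genes. After the length correction the *Gm34302* change was -0.25 (SE 0.48, limma adjusted p = 0.773), so its sign depends on this step. For *Ano10*, whose mean length weighted by TPM was 934 bases, the direction was opposite to its length class, where the median of 1189 genes was 0.28. Under vehicle, where the 3 genes were chosen for their low values, the medians of the 6 length classes were between 0.26 and 0.41.

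**Figure D4:**
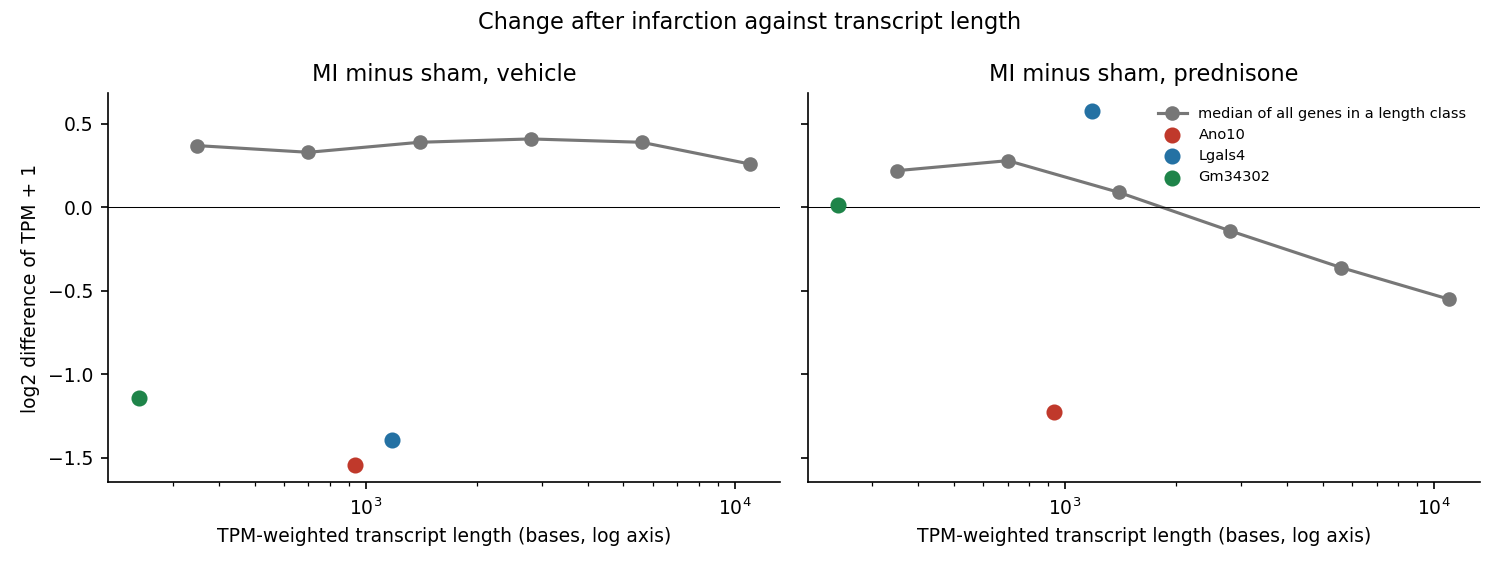
Log2 difference of TPM + 1 between MI and sham (y axis) against transcript length in bases (x axis, log scale), under vehicle (left) and prednisone (right). Grey points are medians of all genes in 6 length classes, drawn near the middle of each class, and coloured points are the 3 genes. Under prednisone the medians run from 0.28 to -0.55, with *Gm34302* at 0.01, *Lgals4* at 0.58 and *Ano10* at -1.23.

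The pump on which DWORF acts, and the peptides it displaces, were set beside it. This list was chosen after the values were seen. *Atp2a2*, the cardiac SERCA gene, was at 2588 ± 183 TPM in sham and 1865 ± 236 TPM in MI under vehicle, a log2 change of -0.48 that was not called (limma adjusted p = 0.091). Under prednisone it fell from 2825, 2967 and 3016 TPM in sham to 1144, 926.1 and 1752 TPM in MI (log2 change -1.26, limma adjusted p = 0.00235). *Pln*, which encodes phospholamban, was at 2728 ± 182 and 2089 ± 386 TPM under vehicle (-0.40, limma adjusted p = 0.102) and at 2699 ± 144 and 1621 ± 375 TPM under prednisone (-0.76, limma adjusted p = 0.0121). The *Pln* call was lost with rescaled libraries (-0.64, limma adjusted p = 0.109) and after the length correction (-0.80, 0.0938), while *Atp2a2* passed with both (-1.14 and -0.97). Under vehicle rescaling moved *Atp2a2* to -0.89 (limma adjusted p = 0.0723) and *Pln* to -0.82 (0.0862), neither called.

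The smaller inhibitors were scarcer. *Sln*, the sarcolipin gene, which also marks the atria, was 2.03 higher with prednisone in MI hearts (limma adjusted p = 0.0217) and was not called between MI and sham with either treatment. The atrial markers *Myl7* and *Myl4* were called in the same comparison, 2.04 and 1.98 higher on the log2 scale (limma adjusted p = 0.0281 and 0.0315), and MI vehicle replicate 2 was the lowest of the 12 libraries for all 3 genes. The part of atrial tissue in the *Sln* difference was not tested. *Mrln*, the myoregulin gene, was at 1.77 ± 0.26 TPM in sham and 0.72 ± 0.30 TPM in MI under vehicle (log2 change -0.70, limma adjusted p = 0.0471). *Atp2a1* did not pass the filter and *Atp2a3* was not called. In the list of 6, 5 genes were tested: under vehicle 1 fell and none rose in MI (0.904% of all genes were called lower), and under prednisone 2 fell and none rose (14.1% called lower), with list medians of -0.48 and -0.12 against 0.39 and -0.06 over all genes.

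Relative to *Pln*, *Gm34302* was higher in MI than in sham under prednisone in every mouse. Per 100 TPM of *Pln* there were 6.74, 6.48 and 5.35 TPM of *Gm34302* in sham vehicle and 4.71, 3.43 and 3.03 in MI vehicle mice, values that the choice of the gene bears on. Under prednisone there were 5.52, 5.60 and 4.66 in sham and 8.03, 11.9 and 7.54 in MI mice, with no overlap (exact permutation p = 0.10, two-sided, the smallest possible). Per 100 TPM of *Atp2a2* the prednisone groups were at 4.83 ± 0.40 and 12.1 ± 4.46. The weighted transcript lengths are 243 bases for *Gm34302*, 1730 for *Pln* and 4049 for *Atp2a2*. The length trend of the MI prednisone libraries therefore moves with these ratios, and its part in them was not tested. Per 10000 TPM of the 10 cardiomyocyte markers, *Gm34302* was at 34.6 ± 4.21 TPM in sham and 36.3 ± 4.78 TPM in MI under prednisone (exact permutation p = 0.60).

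**Figure D5:**
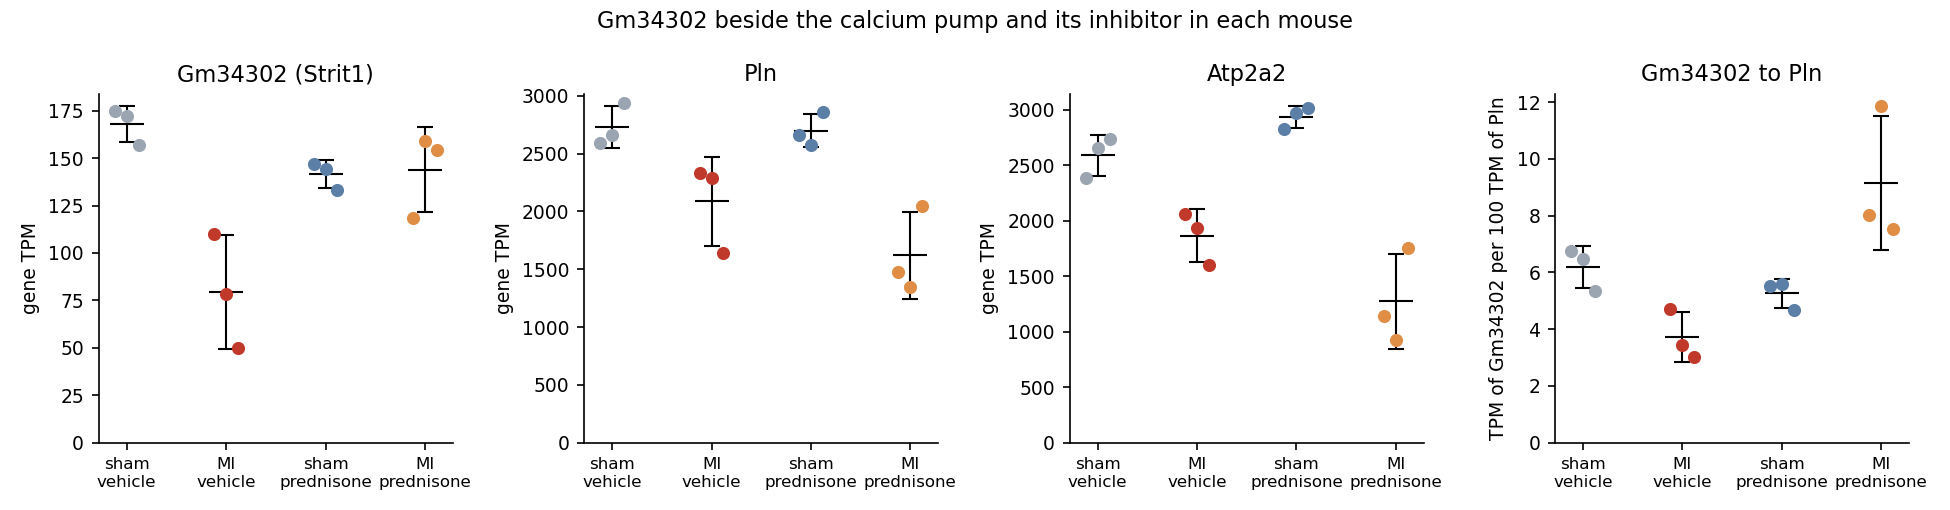
Gene TPM of *Gm34302*, *Pln* and *Atp2a2*, and TPM of *Gm34302* per 100 TPM of *Pln* (y axes), in each mouse by group (x axes), with the mean ± SD of 3. The ratio is 3.03 to 4.71 in MI vehicle mice and 7.54 to 11.9 in MI prednisone mice, with the sham mice between 4.66 and 6.74.

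No other anoctamin or galectin was called lower in MI under vehicle. Of 9 other anoctamin genes, 4 were tested, and under vehicle none was called (list median 0.37), where 16.0% of all genes were called and 0.904% called lower. *Ano6*, a phospholipid scramblase gene, was at 6.19 ± 1.21 TPM in sham and at 8.78, 8.39 and 22.7 TPM in the 3 MI mice (limma adjusted p = 0.0643), the highest in the library that stood apart. Under prednisone 1 of the 4 fell, *Ano4*, from 3.47 to 1.73 TPM (log2 change -0.72, limma adjusted p = 0.00893), a call lost after the length correction at nearly the same change (-0.65, 0.0612). Of 9 other galectin symbols 8 were in the table, and all 8 were tested. With MI, *Lgals3*, the macrophage and fibrosis galectin, rose with either treatment, from 8.89 to 40.6 TPM under vehicle (log2 change 1.97, limma adjusted p = 0.014) and from 8.59 to 27.3 TPM under prednisone (1.53, 0.0216). *Lgals1* also rose, by 0.87 (0.0104) and 0.56 (0.0318), but lost the call under vehicle after rescaling (0.46, limma adjusted p = 0.0646) and the length correction (0.48, 0.0561) and under prednisone after the length correction (0.33, 0.122). No other galectin was called in MI against sham, and the list medians were 0.83 under vehicle and 0.13 under prednisone, against 0.39 and -0.06 over all genes.

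The neighbours of the other genes were examined as well. Of 6 protein-coding neighbours of *Ano10*, 4 were tested and none was called under vehicle, where 16.0% of all genes were, although *Tcaim* was called with rescaled libraries (-0.75, limma adjusted p = 0.0482). Under prednisone, where 16.8% of all genes were called, *Snrk*, a kinase gene that ends 6171 bases from *Ano10* on the other strand, fell by 0.73 (limma adjusted p = 0.0285) and *Tcaim* by 0.81 (0.00491). *Snrk* lost the call with rescaled libraries (-0.61, limma adjusted p = 0.055) and after the length correction (-0.58, 0.0865), and *Tcaim* after the latter (-0.64, 0.0646), with changes of like size. None of the 4 tested neighbours of *Gm34302* was called between MI and sham, which at 4 genes is near those shares. Within the *Ano10* span the annotation has 1 other gene, the microRNA gene *Mir8106*, which does not overlap the short transcript, and no annotated gene overlaps *Lgals4* or *Gm34302*.

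The 300-base RefSeq promoter windows (GRCm38.p6) around the gene starts of *Strit1* and *Lgals4* are shown because both genes were lowest in MI vehicle and not called under prednisone. Windows were found for 3 of 3 genes. That of *Ano10* belongs to the start of the long transcript and is not shown. Capitals mark matches to the E-box letters CANNTG, which reads the same on both strands. *Strit1* lies at chr3:63483857-63484156 (minus strand) and *Lgals4* at chr7:28833544-28833843 (plus strand), both 5′ to 3′.
Strit1 promoter: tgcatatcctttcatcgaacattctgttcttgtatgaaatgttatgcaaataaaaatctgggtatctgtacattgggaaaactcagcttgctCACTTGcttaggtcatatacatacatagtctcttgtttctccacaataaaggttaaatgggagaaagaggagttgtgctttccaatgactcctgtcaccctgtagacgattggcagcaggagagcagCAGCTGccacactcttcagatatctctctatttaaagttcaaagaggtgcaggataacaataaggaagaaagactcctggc
Lgals4 promoter: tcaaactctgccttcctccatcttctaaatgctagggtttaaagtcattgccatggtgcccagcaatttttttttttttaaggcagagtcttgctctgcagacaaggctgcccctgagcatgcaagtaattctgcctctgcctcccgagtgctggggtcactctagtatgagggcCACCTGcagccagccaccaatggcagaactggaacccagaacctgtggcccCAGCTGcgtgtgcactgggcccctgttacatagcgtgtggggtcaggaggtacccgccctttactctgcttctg

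Each of the 3 windows holds 2 E-box matches, and 72.3% of 32851 promoter windows of this length hold at least 1. The GC box GGGCGG (or CCGCCC) was found at 0 places for *Strit1*, 1 for *Lgals4* and 5 for *Ano10*, and in 35.7% of all windows. The glucocorticoid receptor hexamer AGAACA (or TGTTCT) was found once for *Strit1* and in 19.0% of windows, while the full glucocorticoid response element (in 0.00913% of windows), the MEF2 core (in 0.11%), TATAAA (or TTTATA, in 13.6% of windows) and AGATAA (or TTATCT, in 11.2%) were found in none of the 3. The GC content was 40.7% for *Strit1*, 54.0% for *Lgals4* and 65.7% for *Ano10*.

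The genes most like each of the 3 were ranked by Pearson correlation over the 12 libraries. *Ano10* was closest to *Ttll1* (a tubulin polyglutamylase, r = 0.98), *Hadh* and *Decr1* (fatty acid oxidation enzymes, both 0.96), *Ift81* (intraflagellar transport, 0.95) and *Apbb1* (0.94). *Ttll1* was at 27.8 ± 2.20 and 15.4 ± 2.10 TPM in sham and MI under vehicle and at 28.9 ± 2.42 and 17.0 ± 2.61 TPM under prednisone, the same order as *Ano10*. *Lgals4* was closest to *Rnf207* (0.91), *Fmc1* (an ATP synthase assembly factor, 0.89), *Ech1* (0.88), *Usmg5* and *Smim20* (both 0.86). *Gm34302* was closest to *Ech1* (0.94), *Rtn2* (0.92), *Gm8113* and *Fbp2* (muscle fructose bisphosphatase, both 0.89) and *Rpl3l* (a muscle ribosomal protein, 0.88). *Lgals4* and *Gm34302* correlated at 0.83 with each other, and *Ano10* at 0.47 with *Lgals4* and 0.71 with *Gm34302*. These points share their libraries, and the correlations are descriptions with no test.

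Markers of other cell types differed between the groups beside these genes. The summed cardiomyocyte markers were 37490 to 39510 TPM in sham vehicle and 26770 to 33590 TPM in MI vehicle, and 38380 to 44350 and 38350 to 41690 TPM under prednisone. The 6 fibroblast markers summed to 365.0 to 494.9 TPM in sham vehicle and 887.4 to 1190.0 TPM in MI vehicle, but to 418.0 to 496.8 and 323.1 to 559.9 TPM under prednisone. All 6 fibroblast and 4 of 5 macrophage markers rose in MI under vehicle, where 15.1% of all genes were called higher, and 3 of 10 cardiomyocyte markers fell (*Myh6*, *Tnni3* and *Ttn*), where 0.904% were called lower. With rescaled libraries *Dcn* (limma adjusted p = 0.125), *Pdgfra* (0.387) and *Adgre1* (0.131) lost the call and *Ryr2* gained it (0.0487). The same changes of call were seen after the length correction. There *Myh6* (limma adjusted p = 0.0796) and *Tnni3* (0.0532) also lost the call, while *Ttn* kept it (0.0398). Under prednisone 3 of 10 cardiomyocyte markers fell, *Myh6* by 0.44 (limma adjusted p = 0.0373), *Ryr2* by 1.44 (0.00216) and *Pln* by 0.76 (0.0121), against 14.1% of all genes. Of these, *Ryr2* kept the call with rescaled libraries (limma adjusted p = 0.00922). The fibroblast marker *Postn* rose by 1.87 (limma adjusted p = 0.00407) and the endothelial marker *Vwf* by 1.24 (0.00572). The macrophage marker *Cd163* fell by 0.59 (limma adjusted p = 0.0381), and the endothelial markers *Cdh5* by 0.44 (0.0312) and *Kdr* by 0.40 (0.0484). *Postn* and *Vwf* kept their calls with both corrections, and *Cdh5* (limma adjusted p = 0.0835) and *Kdr* (0.175) lost theirs with rescaled libraries. After the length correction *Cd163* (limma adjusted p = 0.161) lost its call. *Cdh5* was then at -0.17 (limma adjusted p = 0.381) and *Kdr* at 0.02 (0.95), with the sign turned. Per 10000 TPM of the summed cardiomyocyte markers, *Ano10* was at 17.2 ± 1.62 TPM in sham and 7.47 ± 0.74 TPM in MI under prednisone. It was lower relative to that sum (exact permutation p = 0.10, two-sided, the smallest possible), but not relative to each marker. The largest part of the sum was *Myl2*, at 13089 ± 1071 TPM in sham and 13978 ± 1588 TPM in MI, which was not called. *Ryr2*, on the same list, fell by 1.44, beside -1.23 for *Ano10*. Under vehicle, as a description of the mice that chose the genes, the ratios to the summed markers were 18.1 ± 0.75 and 7.57 ± 1.56 for *Ano10*, 5.54 ± 0.67 and 2.40 ± 0.33 for *Lgals4* and 44.0 ± 3.76 and 25.0 ± 7.40 for *Gm34302*. Under prednisone *Lgals4* was at 3.88 ± 1.56 in sham and 6.16 ± 2.60 in MI by this ratio (exact permutation p = 0.30). *Gm34302* was at 34.6 ± 4.21 and 36.3 ± 4.78 (exact permutation p = 0.60). The part of the cell mixture in the differences was not tested further.

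The genes just outside the choice were followed into the prednisone mice in the same way. *Gm45233* (0.19) and *Fabp3-ps1* (-0.71) were not called. *Acot1*, an acyl-CoA thioesterase gene, fell by 0.89 there (limma adjusted p = 0.0154), *Gpr22*, an orphan receptor gene, by 1.29 (0.00756) and *Adra1b*, the alpha-1B adrenergic receptor gene, by 1.24 (0.00515). Of all 99 genes on the list, 43 were called lower in MI under prednisone, *Ano10* among them, against 14.1% of all tested genes. These shares are not alike. Both comparisons use the same estimate of spread for each gene, and the list holds only genes with a mean of 5 TPM or more. How much of the difference follows from the choice was not tested.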

How the data were processed

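Stranded mRNA libraries were made from column-purified RNA, per the labels' protocols. Trimmomatic, HISAT2, kallisto and the build mm10 are named in the submitters' processing notes, and their roles and versions and the annotation release are not given in the sources used here. The authors deposited 1 table of TPM for 105129 transcripts, with a symbol each, and every library sums to 1000000. TPM keeps no depth, so no counting error or floor is given, and precision rests on 3 mice per group. If the samples of a group are not independent, p-values measure only their technical spread.

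Transcripts were summed by symbol. Genes with 1 TPM or more in at least 3 of 12 libraries were analysed as log2(TPM + 1), which understates changes of low genes. Groups came from the titles. Group means were fitted with limma 3.58.1 (R 4.3.3, intensity trend, all 12 libraries, Benjamini-Hochberg adjustment over all genes, called under 0.05). The fit was also run on simulated data with independent noise for each gene. Those data hold no outlying library and no length trend, so the run cannot show how the fit behaves with either. The members and lists were chosen with earlier results of these data known. Named genes were the 3 members, their 5 most correlated genes, tested family members, the 3 nearest coding genes on each side, called markers and genes beside the limit of the choice. The SERCA list was added after the values were seen. Of the rows, 94.7% matched GENCODE M21 by identifier, and 97.9% of these by symbol. Sequences came from GENCODE M21 and RefSeq (GRCm38.p6). Alternatives were rescaling, filter, trend, pseudocount, transcripts, block, samples fitted, each mouse of a comparison left out and removal of mitochondrial genes. The length correction (loess, span 0.5) and the fit without MI vehicle replicate 3 were added after the data were seen. 1 stretch of sequence is not reported here.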

Additional observations from a re-analysis of the deposited data

Results flagged for a closer look

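*Lgals4* stood on opposite sides of sham with the 2 treatments. All 3 MI mice were below the sham mean under vehicle (ratio of means 0.356), and all 3 were above it under prednisone (ratio of means 1.57). The difference between the treatments was not tested, because the vehicle values chose the gene, and the prednisone groups overlapped.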

How the results depend on the processing

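Under prednisone, the fall of *Ano10* in MI was called under every alternative run, with log2 changes from -1.44 to -1.11, and the change of *Lgals4* was positive and not called under any (0.23 to 0.82). The *Gm34302* change of 0.01 was not called under any, and its sign turned with mitochondrially encoded genes removed (-0.14) and with the length correction (-0.25). Leaving out each of the 6 prednisone mice in turn gave -0.06 to 0.15 for *Gm34302*, -1.31 to -1.12 for *Ano10* and 0.23 to 0.82 for *Lgals4*. The 2213 genes called under prednisone became 3490 with median-ratio rescaling, 3557 with mitochondrial genes removed and 6204 in the fit of transcripts, which tests other units. Without 1 of these 6 mice or MI vehicle replicate 3 they were 1027 to 3971. They were 1219, 1146 and 1167 without sham prednisone replicates 1, 2 and 3, 1027 and 1041 without MI prednisone replicates 1 and 2, and 3971 without MI vehicle replicate 3, so the shares of all genes given as background lean on single libraries. The cause was not tested.

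The replicate block gave 1901 calls (1842 shared) and changed no call of the 3 genes (*Ano10* adjusted p = 0.00516). Same-numbered prednisone libraries correlated in their deviations at 0.05, -0.13 and -0.07, and 1 of 3 matched best with its own number. No pairing by number was visible, and 3 libraries per group are too few to settle whether one exists. Without a mouse 2 libraries represent its group and share the spread of the others. With no reads per library, depth could not be weighed.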
